A study of Mus musculus with 24 samples.

Results

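The organic anion transporting polypeptides of the mouse kidney, the products of the Slco genes, were described by 8 genes of 56748 identifiers in the deposited table. They were chosen by symbol, matched to their gene identifiers, and all 8 passed the filter on low values, so every one was tested. They are Slco1a1 (ENSMUSG00000041698), Slco1a4 (ENSMUSG00000030237) and Slco1a6 (ENSMUSG00000079262) on chromosome 6, Slco2a1 (ENSMUSG00000032548) on chromosome 9, Slco2b1 (ENSMUSG00000030737) and Slco3a1 (ENSMUSG00000025790) on chromosome 7, Slco4a1 (ENSMUSG00000038963) on chromosome 2 and Slco4c1 (ENSMUSG00000040693) on chromosome 1. The series holds 24 libraries of poly A RNA from mouse kidney, 6 each from active males, inactive males, active females and inactive females, where active and inactive name the middle of the daily period of collection. The sources used here give no strain, age or clock time, and no group carries a stated mutation or drug. The labels do not say that each library is a separate animal, so p-values measure the spread between these libraries, which may be partly technical. The comparisons are males against females in each period and the active against the inactive period in each sex.

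Organic anion transporting polypeptides sit in the cell membrane and carry large amphipathic anions into cells without using the sodium gradient. Their cargo includes bile acids, steroid sulphates and glucuronides, thyroid hormones, prostaglandins and many drugs. In the kidney the proximal tubule holds several of them and takes up organic anions from blood and from the filtrate. The rodent Slco1a genes arose by duplication and lie side by side, and in rodents the kidney level of Slco1a1 is known to depend on androgens.

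The Slco1a members resemble each other enough that the counting of their reads had to be looked at first. Over aligned transcript, Slco1a1 was 86.3% identical to Slco1a4 and 83.9% identical to Slco1a6, and Slco1a4 was 81.4% identical to Slco1a6. The longest run of identical bases was 132 between Slco1a1 and Slco1a4, and 96 for each of these against Slco1a6. That stretch lies in the coding sequence of all 3 transcripts (GENCODE M21, sense strand) and is shown because it is the longest identical run between a pair of members, with the bases of Slco1a6 that differ from Slco1a1 in capitals.
Slco1a1: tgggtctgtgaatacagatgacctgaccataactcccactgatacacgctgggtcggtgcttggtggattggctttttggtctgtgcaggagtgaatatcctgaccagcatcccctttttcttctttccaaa
Slco1a4: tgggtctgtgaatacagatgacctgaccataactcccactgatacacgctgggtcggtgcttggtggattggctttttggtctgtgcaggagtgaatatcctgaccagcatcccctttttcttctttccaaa
Slco1a6: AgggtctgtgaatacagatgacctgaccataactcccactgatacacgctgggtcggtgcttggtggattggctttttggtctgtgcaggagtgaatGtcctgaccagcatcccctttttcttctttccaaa
Slco1a6 differed from Slco1a1 at 2 of these 132 positions.

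Such stretches were a small share of each transcript. Of all 100-base windows, 0.867% in Slco1a1, 1.10% in Slco1a4 and 2.14% in Slco1a6 occurred letter for letter in another gene, and of all 50-base windows 2.26%, 2.73% and 5.60% did. The gene that shared most windows with Slco1a6 was its cluster neighbour Gm6614. Slco2b1 shared 6.10% of its 100-base windows with Gm15635, a gene on the opposite strand whose exons overlap it by 471 bases and which averaged 31.1 normalized counts over the 24 libraries. No source used here gives the strand setting of the counting, so reads from that overlap could count for either gene or be left uncounted. Slco3a1, Slco4a1 and Slco4c1 shared no window of either length with another gene, and Slco2a1 shared no 100-base window. Values of the 3 Slco1a members are therefore uncertain by the reads that fall in shared stretches. In males this weighs most on Slco1a4, which averaged 147 and 137 normalized counts in active and inactive males, where Slco1a1 averaged 28818 and 29885, so that even a very small share of Slco1a1 reads would be large beside it.

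The 250 bases before the start site are shown for the 3 Slco1a members, whose levels differed widely between neighbours, and for Slco4c1, which was also higher in males than in females. The sequences are from RefSeq on GRCm38.p6, all 4 genes lie on the minus strand, and each is written 5′ to 3′ in the direction of transcription. The table held 7 of the 8 members, and Slco3a1 was not among them. Capitals mark exact matches to TATAAA, the motif of the TATA box, and to TGTTCT, the half-site of the androgen and glucocorticoid receptors. The TATAAA matches are on the reverse strand and so read TTTATA. Whether they act as a TATA box was not tested.
Slco1a1 promoter, chr6:141946963-141947212: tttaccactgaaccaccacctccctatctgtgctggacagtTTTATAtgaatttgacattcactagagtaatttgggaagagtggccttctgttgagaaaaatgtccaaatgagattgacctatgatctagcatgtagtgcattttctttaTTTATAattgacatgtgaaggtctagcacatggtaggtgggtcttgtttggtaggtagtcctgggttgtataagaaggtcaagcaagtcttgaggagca
Slco1a4 promoter, chr6:141856221-141856470: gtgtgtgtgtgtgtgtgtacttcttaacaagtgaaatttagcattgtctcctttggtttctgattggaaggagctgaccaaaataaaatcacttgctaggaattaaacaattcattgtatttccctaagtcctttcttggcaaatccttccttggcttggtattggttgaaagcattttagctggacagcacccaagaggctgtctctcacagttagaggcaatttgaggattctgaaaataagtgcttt
Slco1a6 promoter, chr6:142186150-142186399: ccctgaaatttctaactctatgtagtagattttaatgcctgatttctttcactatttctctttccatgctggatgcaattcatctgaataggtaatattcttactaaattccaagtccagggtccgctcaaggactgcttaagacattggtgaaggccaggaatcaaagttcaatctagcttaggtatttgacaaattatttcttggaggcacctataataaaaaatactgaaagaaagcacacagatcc
Slco4c1 promoter, chr1:96872172-96872421: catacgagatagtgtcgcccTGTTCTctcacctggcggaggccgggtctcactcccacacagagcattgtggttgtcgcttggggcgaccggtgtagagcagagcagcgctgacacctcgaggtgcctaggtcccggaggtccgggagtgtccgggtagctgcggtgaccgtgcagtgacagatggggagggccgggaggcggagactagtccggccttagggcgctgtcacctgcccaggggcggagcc

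Both TATAAA matches of Slco1a1 began 209 and 99 bases before the start, and 12.4% of 32851 promoters of this length hold that motif on either strand. The TGTTCT of Slco4c1 began 230 bases before the start, and 16.1% of promoters hold it. The search also covered CACGTG (the E-box), TTATGTAA (the D-box), GTTAAT (the HNF1 half-site), the full palindromes of the steroid receptors and of HNF1, and the nuclear receptor half-site with an A-rich flank, on both strands. None of these stood in the 4 windows shown. Members that were lower in males held the first motifs too: 1 of the 3 windows of Slco2b1 has a TGTTCT that began 96 bases before its start, and the window of Slco2a1 has a TATAAA that began 29 bases before it. The TGTTCT half-site is part of the steroid receptor palindrome, and GTTAAT is part of that of HNF1. The Slco1a windows were poor in G and C, at 40.4% in Slco1a1, 39.2% in Slco1a4 and 36.4% in Slco1a6, with at most 1 CpG. The Slco4c1 window held 66.4% G and C and 19 CpG, against medians of 52.4% and 6 over all promoters.

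Recovered reads numbered 31.04 to 39.3 M per library. Of genes with 1 to 20 reads in a library, 72.5% to 75.8% in male and 70.9% to 74.2% in female libraries had an even number, so low counts may not be counts of independent fragments. Xist and the Y-linked Ddx3y matched the labelled sex, and the clock genes Dbp, Nr1d1 and Arntl the labelled period, in all 24 libraries. Markers of the proximal tubule were detected in every group with none at 0, while 2 or 3 of 5 adrenal cortex markers and 1 of 4 liver markers were at 0 in each group. The female active libraries 3 and 4 stood apart, with the lowest summed proximal tubule markers of their group (196641 and 193723, against 241222 to 245061 in the other 4) and the highest summed collecting duct markers (15839 and 16887, against 11299 to 13764). The result whose call they changed, and those of Slco4c1, are given with and without them. In whole kidney, fewer cells of a type and less RNA per cell cannot be told apart.

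The summed Slco level was far higher in males than in females when each gene was scaled to its length. Per kb of exon, the 8 members summed to 11507 ± 759 normalized counts in active males, 11194 ± 1087 in inactive males, 3924 ± 588 in active females and 3543 ± 275 in inactive females (SD, n = 6). Slco1a1 made up 47.4% ± 1.42 of the sum in active males and 50.3% ± 4.02 in inactive males, but 0.00782% ± 0.00913 in active females and 0.0452% ± 0.0313 in inactive females. Slco1a6, an Slco1a member known for its high level in mouse kidney, followed in males with 37.5% and 35.9%, and led in females with 77.8% and 80.3%. Slco3a1 came next in males, at 1090.0 ± 98.6 per kb in the active and 900.3 ± 74.8 in the inactive period.

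Below these the order was less sharp, and it depends on the length used. The length here joins all annotated exons, 13545 bases for Slco2a1 and 4908 for Slco4c1. Their longest coding transcripts have 7122 and 4908 bases, so Slco2a1 would stand higher on that scale. In males Slco4c1 followed, at 314 ± 24.7 and 338 ± 30.2 per kb, and then Slco2b1 and Slco4a1, whose means lay within their SDs of each other in both periods. In females Slco3a1, Slco4a1 and Slco2b1 lay between 148 and 229 per kb, and Slco4a1 did not differ from either of the others by more than the SDs. Slco4c1 and Slco2a1 were also within their SDs of each other in females, at 131 ± 66.4 and 89.6 ± 7.52 in the active period and 87.6 ± 17.9 and 90.2 ± 6.96 in the inactive period. Slco1a4 was the lowest member in males, at 22.9 ± 3.78 and 21.3 ± 5.07 per kb, and the lowest but Slco1a1 in females.

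**Figure D1:**
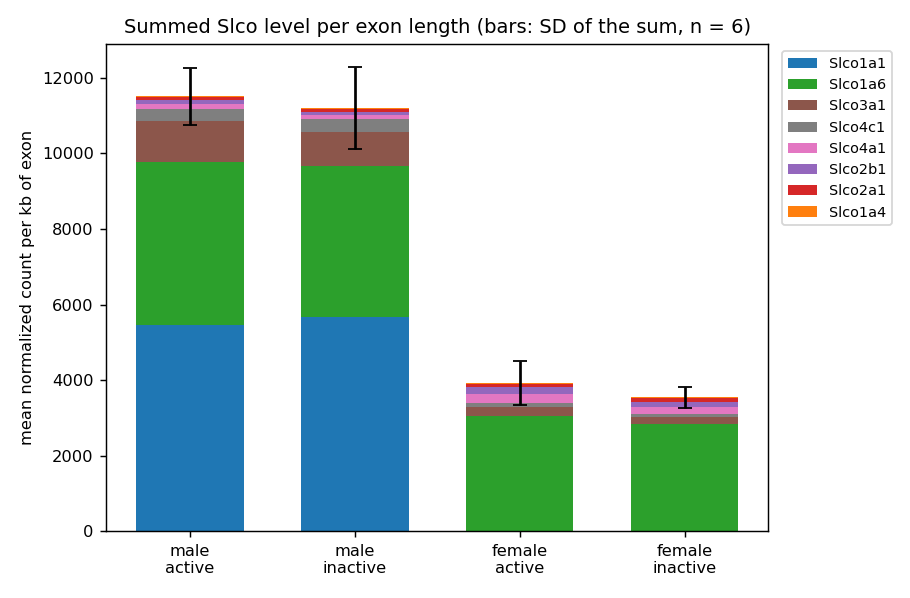
Mean normalized count per kb of exon for the 8 Slco genes, stacked, in the 4 groups of 6 libraries; the error bar is the SD of the sum over libraries. The sum was 11507 and 11194 in active and inactive males and 3924 and 3543 in active and inactive females, and the Slco1a1 block stands in the male bars with no visible height in the female ones.

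Males and females differed in 7 of 8 members in the active period and in 6 of 8 in the inactive period. Slco1a1, Slco1a6, Slco3a1 and Slco4c1 were higher in males in both periods, Slco2a1 and Slco2b1 were lower in both, and 44.9% of all tested genes were likewise called the same way in both. Slco4a1 was lower in active males. Sex differences were common in this kidney: 60.6% of 17333 tested genes were called in the active period and 55.7% in the inactive period, at a limma Benjamini-Hochberg adjusted p under 0.05. By direction, 4 members were higher and 3 lower in active males (30.1% and 30.5% of all tested genes), and 4 and 2 in inactive males (27.9% and 27.8%). The groups did not overlap for 5 members in the active and 6 in the inactive period, against 36.3% and 32.3% of all tested genes. The median log2 fold of the members was 0.40 in the active and 0.18 in the inactive period, against -0.05 and -0.04 over all tested genes.

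Slco1a1, an uptake carrier of bile acids and steroid conjugates, was abundant in every male and nearly absent from every female. Active males ranged from 24743 to 31627 normalized counts with a median of 29491, and active females from 0 to 3.89 with a median of 0.975. Inactive males ranged from 22131 to 35662 with a median of 30352, and inactive females from 1.61 to 19.6 with a median of 6.30. Male and female libraries did not overlap. The log2 fold of males over females was 13.80 ± 0.44 (SE) in the active period, adjusted p = 1.98e-16, and 11.87 ± 0.44 in the inactive period, adjusted p = 3.32e-15. With female values this near 0 the size of the fold depends on the setting. It was 12.14 and 11.22 with a pseudocount of 5, and 14.10 and 11.78 with edgeR.

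The female level rested on few reads. The 6 active female libraries held 10 Slco1a1 reads in all, and 3 of them held none. The 6 inactive female libraries held 56 reads, and each held some, while the active and inactive males held 156831 and 168378. Every female count was even, so these reads may stand for fewer fragments, and no counting interval is given. Reads of Y-linked genes also occurred in 4 female libraries, so the female mean is set beside theirs as a share of the mean of the 12 males. In inactive females Slco1a1 stood at 0.0289% of the male level, Ddx3y at 0.0751%, Kdm5d at 0.0613% and Eif2s3y at 0.00917%, and Uty had no read. In active females Slco1a1 stood at 0.00533% and Kdm5d at 0.0302%, and the other 3 had no read. Whether reads from male libraries account for the female Slco1a1 reads was not tested.

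Slco1a6 was the only Slco1a member at a high level in both sexes. In active males it ranged from 14849 to 17353 normalized counts with a median of 16608, and in active females from 10086 to 14828 with a median of 11162. In inactive males it ranged from 13846 to 16342 with a median of 15390, and in inactive females from 9603 to 12162 with a median of 10882. The highest female of the active period, library 4, came close to the lowest male, but the groups did not overlap in either period. Slco1a6 was 1.41-fold higher in males in both periods, with log2 folds of 0.51 ± 0.07 (adjusted p = 6.53e-07) and 0.49 ± 0.07 (adjusted p = 1.30e-06). With all libraries scaled to the same total these were 0.23 and 0.21, still called, but that scaling moved the median of all tested genes by -0.27 and -0.28 too, so relative to the median gene Slco1a6 kept its difference.

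Slco1a4, a carrier of cardiac glycosides best known from liver and the blood-brain barrier, was low and did not pass the test for sex. The 6 active males spanned 111 to 179 normalized counts with a median of 143, and the active females 106 to 139 with a median of 117. The 6 inactive males spanned 97.0 to 182 with a median of 141, and the inactive females 92.0 to 225 with a median of 149. The groups overlapped in both periods. The log2 folds were 0.30 ± 0.18 (95% interval -0.06 to 0.66, adjusted p = 0.146) and -0.14 ± 0.18 (-0.50 to 0.22, adjusted p = 0.515). Under equal totals the fold of the inactive period was -0.42, adjusted p = 0.0454, of which -0.28 was the shift of the median gene. The male values may include reads of Slco1a1 from the shared stretches, and their part in the Slco1a4 level was not tested.

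**Figure D2:**
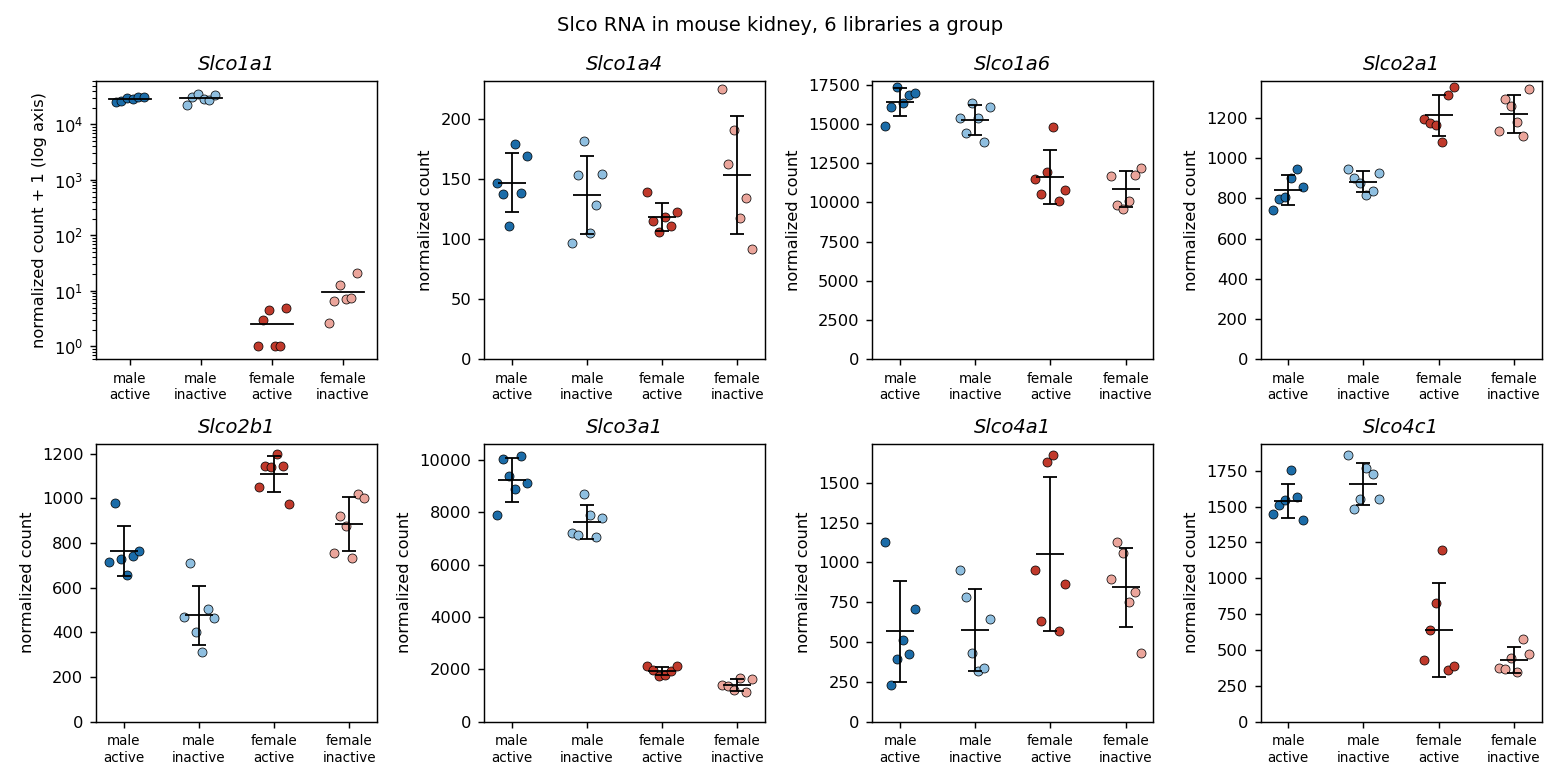
Normalized counts of the 8 Slco genes in each library, 6 per group, with active males, inactive males, active females and inactive females from left to right; bars are means with SD, except for Slco1a1, drawn as normalized count plus 1 on a log axis with the mean alone. Slco1a1 lies at 22131 or more in every male and at 19.6 or less in every female, while the Slco4a1 points of all 4 groups overlap.

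Along chromosome 6 the large sex difference was not shared by all genes of the cluster. In the order of the annotation the cluster runs Slco1c1, Slco1b2, Gm5724, Slco1a4, Gm30784, Gm30843, Slco1a1, Gm6614, Slco1a6, Gm18159 and Slco1a5. The long non-coding Gm30843 could not be matched to values. The genes of the cluster that carry only a model name in the annotation used and passed the filter were higher in males as well. The long non-coding Gm30784 averaged 155 and 94.2 normalized counts in active and inactive males and 74.3 and 45.0 in active and inactive females. Its log2 folds of males over females were 1.12 ± 0.23 and 1.08 ± 0.23. The protein-coding model Gm6614 averaged 146 and 171 in active and inactive males and 39.7 and 30.3 in active and inactive females, with log2 folds of 2.31 ± 0.38 and 2.60 ± 0.38. The pseudogene Gm18159, next to Slco1a6, averaged 99.7 and 76.7 in active and inactive males and 4.90 and 5.34 in active and inactive females, with log2 folds of 4.57 ± 0.39 and 3.67 ± 0.39. All 6 of these folds were called (adjusted p of 2.56e-04 or less). Because Gm6614 shares windows with Slco1a6, and Slco1a6 was far more abundant than Gm6614 in both sexes, reads of Slco1a6 may count for it. Over aligned transcript Gm6614 was 86.3% identical to Slco1a1 and 83.7% identical to Slco1a6. Slco1a1 has an identical run of 96 bases with Gm6614 and was abundant in males alone. Its reads may count for Gm6614 in males, and neither part was tested.

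**Figure D3:**
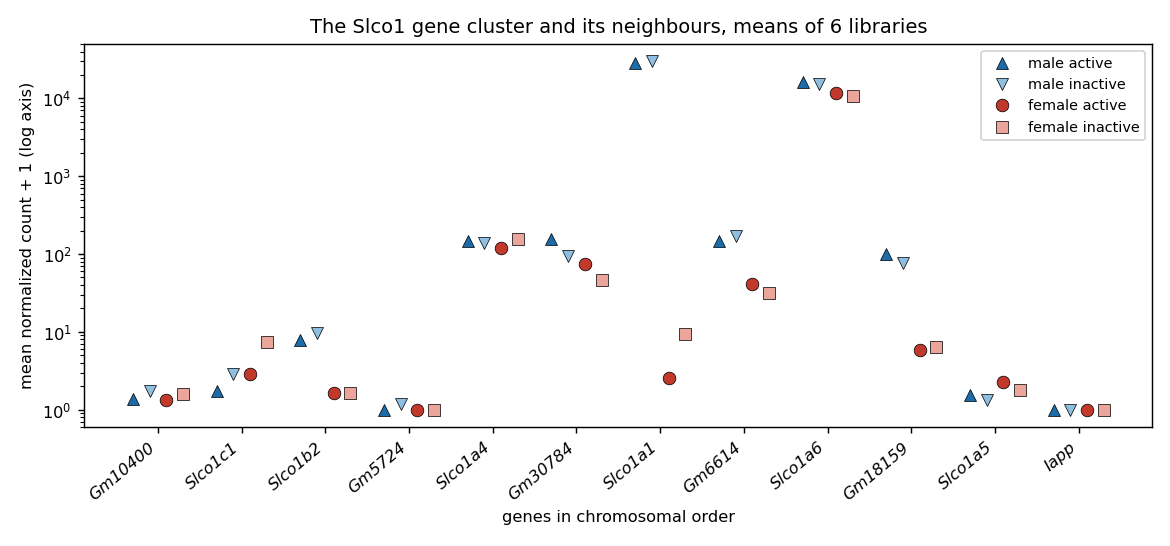
Mean normalized count plus 1, on a log axis, of the genes with values in chromosomal order across the Slco1 cluster of chromosome 6, with a symbol for each group of 6 libraries. Slco1a1 stands at 28818 and 29885 in active and inactive males and at 1.57 and 8.49 in active and inactive females, between neighbours whose male and female symbols lie far closer together.

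The other Slco genes that could be matched hardly registered. Of 9 further symbols of the family listed, 7 matched the annotation, and none of the 7 passed the filter. Slco1b2, the main liver carrier of the family, had 38 and 49 reads in active and inactive males and 4 and 4 in active and inactive females. Slco1c1, a thyroxine carrier of the blood-brain barrier, had 4 and 10 reads in active and inactive males and 12 and 44 in active and inactive females. Slco1a5 had at most 8 reads in a group and Slco5a1 at most 22. These genes were not tested.

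Slco3a1, a carrier of prostaglandins and thyroxine, was higher in males in both periods. Active males ranged from 7879 to 10165 normalized counts with a median of 9239, and active females from 1754 to 2124 with a median of 1938. Inactive males ranged from 7069 to 8707 with a median of 7490, and inactive females from 1128 to 1663 with a median of 1383. Every male lay far above every female. Slco3a1 was 4.76-fold higher in active males (log2 fold 2.25 ± 0.08, adjusted p = 4.06e-19) and 5.45-fold higher in inactive males (log2 fold 2.45 ± 0.08, adjusted p = 6.37e-20).

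Slco4c1, the carrier of the proximal tubule that in human and rat takes up digoxin and thyroid hormone, was also higher in males. In active males it ranged from 1406 to 1754 normalized counts with a median of 1529, and in active females from 363 to 1197 with a median of 535. In inactive males it ranged from 1484 to 1861 with a median of 1642, and in inactive females from 344 to 579 with a median of 408. No female reached a male, and the 2 highest females of the active period were libraries 3 and 4, at 831 and 1197. The log2 fold was 1.40 ± 0.22 in the active period (adjusted p = 1.00e-05) and 1.96 ± 0.22 in the inactive period (adjusted p = 1.25e-07). Without female active 3 and 4 together, the fold of the active period was 1.79, adjusted p = 6.46e-11.

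Markers of the straight segment of the proximal tubule, known as S3, were mostly higher in the same males. Of 6 such markers 4 were higher and 1 lower in males in each period, and their summed level ranged from 113438 to 135054 in active males, 111611 to 141482 in inactive males, 23120 to 39516 in active females and 20861 to 32168 in inactive females. None of the 6 was at 0. Slc7a13 and Cyp7b1 stand on both this list and the list of sex-biased genes of the proximal tubule. Atp11a, also on this list, averaged 60936 and 58100 normalized counts in active and inactive males. In active and inactive females it averaged 15097 and 13465. The sum is thus not a measure of S3 cells alone. Of 8 markers of the proximal tubule in general, 4 were higher and 4 lower in males in each period. Within active females, libraries 3 and 4 had the lowest S3 sums, at 23120 and 25070 against 28355 to 39516 in the other 4, but the highest Slco4c1 and the highest Slco1a6, at 11948 and 14828 normalized counts. The part of these markers in the sex difference of the Slco genes was not tested.

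Slco2a1, the prostaglandin transporter, was lower in males. The 6 active males spanned 740.1 to 946 normalized counts with a median of 831, and the active females 1083 to 1354 with a median of 1184. The 6 inactive males spanned 818 to 945 with a median of 890, and the inactive females 1112 to 1347 with a median of 1219. The highest male lay below the lowest female in both periods. The log2 folds were -0.53 ± 0.07 (adjusted p = 5.03e-08) and -0.46 ± 0.07 (adjusted p = 6.42e-07).

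Slco2b1, a broad carrier of steroid sulphates, was lower in males too. Active males ranged from 658 to 977 normalized counts with a median of 735, and active females from 973 to 1200 with a median of 1141. Inactive males ranged from 312 to 710 with a median of 467, and inactive females from 735 to 1018 with a median of 899. In the active period 1 male, library 2, overlapped the females, and in the inactive period there was no overlap. The log2 folds were -0.54 ± 0.13 (adjusted p = 8.78e-04) and -0.92 ± 0.13 (adjusted p = 1.57e-06). Gm15635, on the opposite strand, reached at most 70.5 normalized counts in any library. Any reads of the overlap that were left uncounted would not show in that value. With equal totals these folds were -0.82 and -1.20 and those of Slco2a1 -0.80 and -0.74, which includes the shift of the median gene given above.

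Markers of endothelium, podocytes and stroma were lower in the same males. Of 7 endothelial markers 6 were lower in active and 7 in inactive males, and their sum ranged from 11483 to 13424 in active males, 7834 to 13174 in inactive males, 14916 to 19920 in active females and 13471 to 18799 in inactive females. All 5 podocyte markers were lower in males in both periods, and 4 and then 5 of 5 stromal markers were. None of these markers was at 0 in any group. Distal convoluted tubule markers were lower too, with 0 of 3 higher and 2 lower in males in both periods. Their sum ranged from 36615 to 40701 in active and 36569 to 43712 in inactive males. In active females it ranged from 57054 to 70051 and in inactive females from 54757 to 67104.5. The 4 thick ascending limb markers had 1 higher and 3 lower in active males, and 1 and 1 in inactive males. Their sum ranged from 66378 to 81329 in active males and 94713 to 111818 in active females. It overlapped between the sexes in the inactive period. Collecting duct markers, 5 in all, had 2 higher and 3 lower in active males, and 0 and 2 in inactive males. Macrophage markers, 6 in all, had 1 higher and 1 lower in active males, and 0 and 4 in inactive males. The part of these cell type markers in the lower Slco2a1 and Slco2b1 was not tested.

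Slco4a1, a thyroid hormone carrier, varied widely between libraries of 1 group, with an SD of 29.4% to 56.0% of the mean in the 4 groups. In active males it ranged from 230 to 1130 normalized counts with a median of 469, and in active females from 567 to 1673 with a median of 909. In inactive males it ranged from 321 to 950 with a median of 537, and in inactive females from 429 to 1125 with a median of 855. The groups overlapped in both periods, and the 2 highest females were the active libraries 3 and 4, at 1633 and 1673. The log2 fold was -0.94 ± 0.38 in the active period (adjusted p = 0.0362) and -0.61 ± 0.38 in the inactive period (95% interval -1.39 to 0.18, adjusted p = 0.180). The call of the active period was lost without female active 3 and 4 together (log2 fold -0.56, adjusted p = 0.248), without male active 2, 3, 4 or 5 or female active 1, 3 or 4 alone (adjusted p of 0.0503 to 0.103), without the filter on low values (0.0681) and with only the groups compared (0.0719). It was also lost without the 4 female libraries that held Y-linked reads (log2 fold -0.79, adjusted p = 0.0939).

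**Figure D4:**
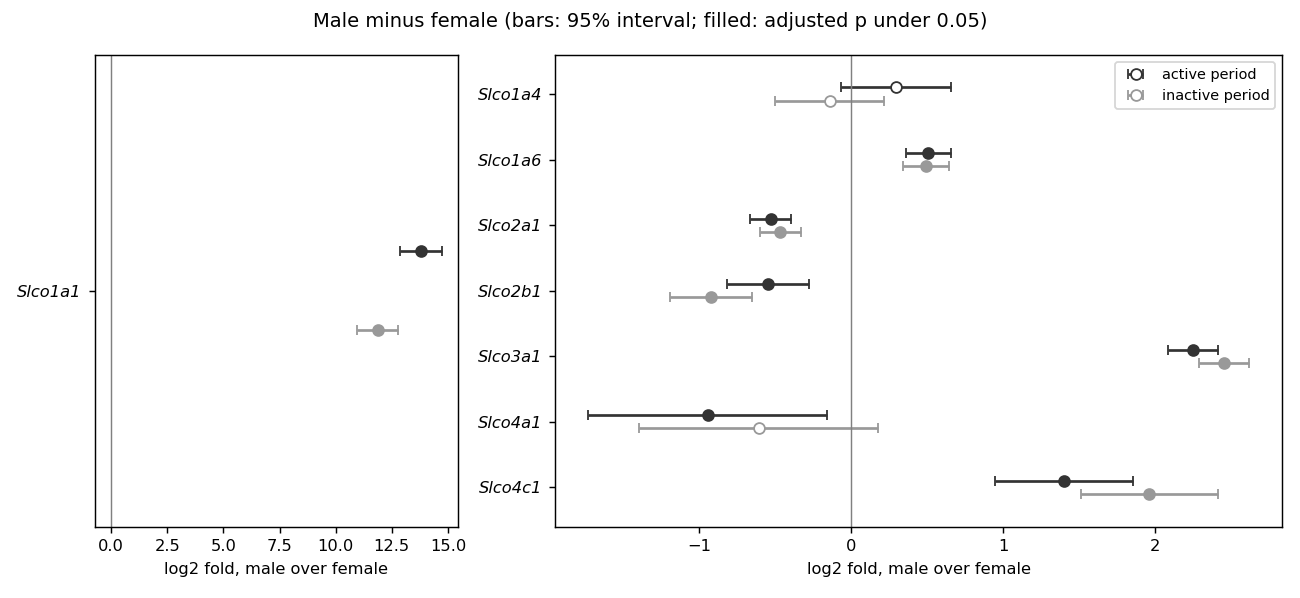
Log2 fold of males over females for each Slco gene, with 95% intervals, in the active (dark) and inactive (grey) period; filled points have an adjusted p under 0.05, and Slco1a1 has its own axis. Slco1a1, Slco1a6, Slco3a1 and Slco4c1 lie to the right of 0 in both periods, Slco2a1 and Slco2b1 to the left, and the interval of Slco4a1 is the widest of the right panel.

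The period of collection changed fewer members than sex did. In males 2 of 8 members were called between the active and inactive periods, against 15.4% of all tested genes, and in females 2 of 8, against 15.0%. In males both were higher in the active period and none lower (8.43% and 6.95% of all genes), namely Slco2b1 and Slco3a1, and in females 1 was higher and 1 lower (7.97% and 6.98%), namely Slco3a1 and Slco1a1. Slco3a1 was the only member called the same way in both sexes, as were 4.67% of all genes. No member had separated groups in males, where 4.29% of all genes had, and only Slco3a1 had in females, where 7.83% had.

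Slco3a1 was 1.38-fold higher in active females, at 1939 ± 160 against 1401 ± 214 normalized counts in inactive females (SD, n = 6), with a log2 fold of 0.48 ± 0.08, adjusted p = 1.19e-04. All 6 active females lay above all 6 inactive ones. It was 1.21-fold higher in active males, at 9237 ± 836 against 7629 ± 634 in inactive males, with a log2 fold of 0.27 ± 0.08, adjusted p = 0.0216. There 5 of 6 active males lay above all inactive ones, and the call was lost without male active 2 (adjusted p = 0.0627), male active 5 (0.0549) or male inactive 5 (0.0542). The period effect in males minus that in females was -0.20 ± 0.11, adjusted p = 0.344.

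Slco2b1 was 1.60-fold higher in active males, at 764 ± 111 against 477 ± 133 normalized counts in inactive males, with a log2 fold of 0.71 ± 0.13, adjusted p = 7.47e-04. Of the active males 5 of 6 lay above all inactive ones. In females it stood at 1108 ± 81.7 in the active period and 885 ± 120 in the inactive period, with a log2 fold of 0.33 ± 0.13 and an adjusted p of 0.0911. That p was 0.00744 with only the 2 female groups in the fit, 0.0268 without male inactive 2 and 0.0370 without male inactive 4. The period effects of the sexes differed by 0.38 ± 0.19, adjusted p = 0.272. Of 7 endothelial markers 3 were higher in active than in inactive males and none lower, and 2 of 5 stromal markers were higher. Among all tested genes 8.43% were higher in active males. In active females 2 endothelial markers were higher and 1 lower, and 1 stromal marker was higher and 2 lower. Their part in the Slco2b1 difference was not tested.

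Slco1a1 fell in active females, at 1.57 ± 1.84 against 8.49 ± 6.29 normalized counts in inactive females, with a log2 fold of -1.97 ± 0.44, adjusted p = 0.00387. The groups overlapped, and the values are the 10 and 56 reads given above. The inactive libraries 3 and 6 were highest, at 11.6 and 19.6, and had the highest sums of the 4 Y-linked genes among females, at 6.62 and 5.87. Without the 4 female libraries that held Y-linked reads the log2 fold was -1.60, adjusted p = 0.0450, and with a pseudocount of 5 it was -0.96, adjusted p = 0.00568. In males Slco1a1 stood at 28818 ± 2687 in the active and 29885 ± 4881 in the inactive period, with a log2 fold of -0.04 ± 0.44 and an adjusted p of 0.963. That SE, like the equal SE of the female fold, pools the spread of all 4 groups. The SD was 9.32% and 16.3% of the mean in active and inactive males, and 117% and 74.1% in active and inactive females. The SE therefore does not measure the spread between male libraries alone. Nor does it measure that between female libraries alone, so the adjusted p of the female fold may be too small.

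The other 5 members were not called between the periods in either sex. In males their log2 folds ran from -0.11 for Slco4c1 to 0.12 for Slco1a4, and in females from -0.31 for Slco1a4 to 0.46 for Slco4c1. The interval was narrow for Slco1a6, at -0.04 to 0.26 in males and -0.06 to 0.24 in females, and for Slco2a1, at -0.21 to 0.06 and -0.14 to 0.13. It was wide for Slco4a1, at -0.87 to 0.70 in males and -0.53 to 1.04 in females. For Slco4c1 in females, 641 ± 326 and 430.1 ± 87.8 normalized counts in the active and inactive periods gave an adjusted p of 0.177. Without female active 3 and 4 the log2 fold of Slco4c1 in females was 0.07 (adjusted p = 0.824), and the period effect in males minus that in females was -0.17, against -0.56 with them.

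No member passed the test of whether the period effect differed between the sexes, for which 2.71% of all tested genes were called. At an unadjusted p under 0.05 there was 1, Slco1a1, with a difference of 1.93 ± 0.62 in limma and an adjusted p of 0.0942. DESeq2 on the recovered reads called it (log2 difference 2.40, adjusted p = 9.23e-04), as did limma without female inactive 1 (2.25, adjusted p = 0.0369), and edgeR did not. This difference again rests on the few female reads.

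**Figure D5:**
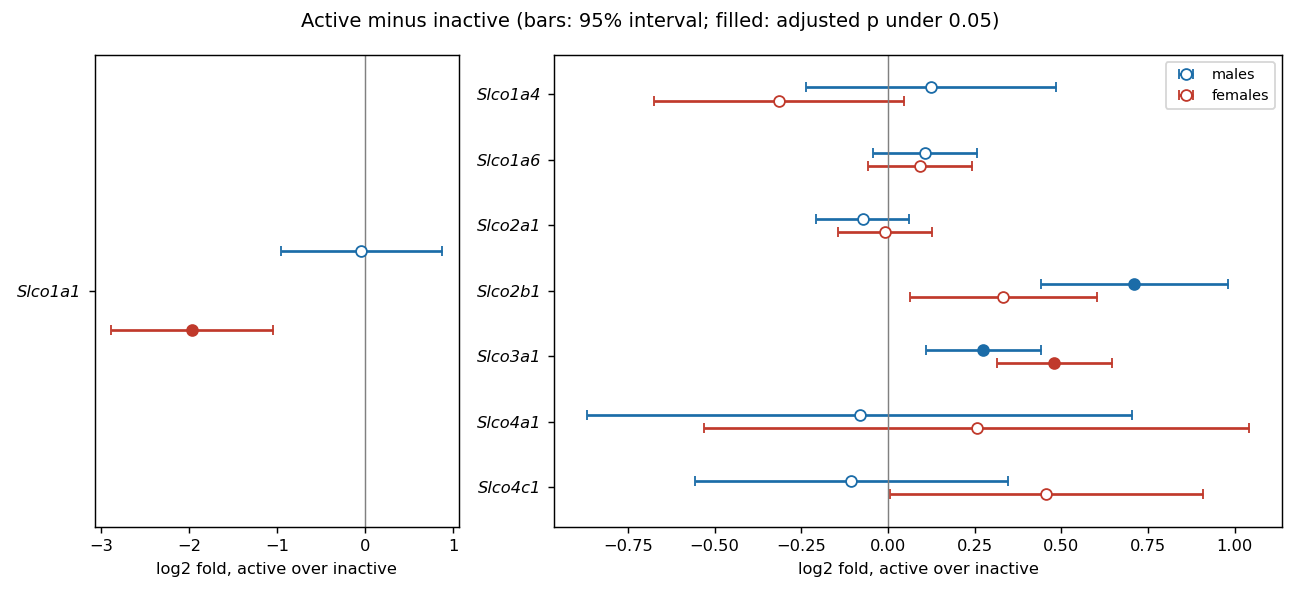
Log2 fold of the active over the inactive period for each Slco gene, with 95% intervals, in males (blue) and females (red); filled points have an adjusted p under 0.05, and Slco1a1 has its own axis. Slco3a1 is filled in both sexes, Slco2b1 in males and Slco1a1 in females, where it rests on 10 and 56 reads.

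The genes whose pattern over the 24 libraries was nearest to that of a member were looked up for the 3 members with a called log2 fold of at least 1 in size, as 10.1% and 8.69% of all tested genes had between the sexes in the active and inactive periods. Nearness was the root-mean-square difference of centred log2 values, among 12461 genes. For Slco1a1 the nearest were the Y-linked Eif2s3y, Ddx3y and Uty, at 1.17, 1.40 and 1.74, where Slco1a1 itself spreads by 6.50. For Slco3a1 they were Ldhd, a lactate dehydrogenase that acts on D-lactate, Cd36, a fatty acid carrier, and Atp11a, a phospholipid flippase, at 0.21, 0.22 and 0.23, with an own spread of 1.20. For Slco4c1 they were Hsd11b1, which regenerates glucocorticoid, Idi1, an enzyme of isoprenoid synthesis, and Tsku, a secreted protein, at 0.34, 0.36 and 0.37, with an own spread of 0.93.

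Other carriers of organic anions and bile acids differed between the sexes in both directions. Of 15 tested, 7 were higher and 5 lower in active males, and 7 and 7 in inactive males, with median log2 folds of 0.02 and 0.12. Abcc3, an efflux pump for conjugates, averaged 79.9 ± 7.05 and 68.5 ± 16.8 normalized counts in active and inactive males and 2104 ± 631 and 2478 ± 734 in active and inactive females, with log2 folds of -4.65 ± 0.19 and -5.14 ± 0.19. Abcc4, an efflux pump for urate, cyclic nucleotides and prostaglandins, had log2 folds of -1.75 ± 0.10 and -1.88 ± 0.10. Between the periods 3 rose and 1 fell in active males and 1 rose and 1 fell in active females. Among all tested genes 8.43% rose and 6.95% fell in active males, and 7.97% and 6.98% in active females. In males Slc51b, a subunit of the basolateral bile acid exporter, rose with a log2 fold of 0.58 ± 0.10 (adjusted p = 1.74e-04), and in females Slc10a2, the apical bile acid carrier, rose with 0.70 ± 0.23 (adjusted p = 0.0436).

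Genes that make, degrade or sense prostaglandins, cargo of Slco2a1, were more often lower in males than higher. Of 17 tested, 9 were lower and 3 higher in active males, and 11 and 3 in inactive males, with median log2 folds of -0.43 and -0.57. Among all tested genes 30.5% were lower and 30.1% higher in active males, and 27.8% and 27.9% in inactive males. Cbr1, a carbonyl reductase that acts on prostaglandins, averaged 888 and 927 normalized counts in active and inactive males and 7160.0 and 7935 in active and inactive females, with log2 folds of -3.01 ± 0.06 and -3.10 ± 0.06. Hpgd, which inactivates prostaglandins after uptake, had a log2 fold of -1.34 ± 0.09 in the inactive period. Ptgr1, a reductase of prostaglandin metabolites, was higher in active males with 1.58 ± 0.11. Between the periods the receptor Ptger3 rose in active females with 0.58 ± 0.10 (adjusted p = 1.89e-04), and the thromboxane synthase Tbxas1 fell in active males with -0.75 ± 0.10.

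Genes of thyroid hormone transport and action were split. Of 11 tested, 3 were higher and 5 lower in active males and 4 and 6 in inactive males. The amino acid and thyroid hormone carrier Slc7a8 was lower in males, with log2 folds of -0.85 ± 0.06 and -0.98 ± 0.06. Between the periods 0 rose and 2 fell in active males, and 1 rose and 3 fell in active females. Over all tested genes 8.43% rose and 6.95% fell in active males, and 7.97% and 6.98% in active females. The receptor Thra fell in the active period in both sexes, with -0.41 ± 0.07 in males and -0.48 ± 0.07 in females. Klf9, a target of thyroid hormone that the clock also drives, fell in active males with -0.35 ± 0.10. The period effect differed between the sexes for 1 of the 11, and for 2.71% of all tested genes.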

How the data were processed

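Kidney poly A RNA of 24 libraries was analysed, 6 in each of 4 groups taken from the labels, with 100 ng of RNA per library. The deposited signal holds read counts per gene after the authors' division by 1 factor for each library. The submitters' processing notes list DESeq2 1.28.1, featureCounts, Subread 2.0.6, Trim Galore 0.6.10 and GRCm39, without role or order. No source used here gives the read length, strand setting or annotation release. The files are of GRCm39 and the annotation held here (GENCODE M21, RefSeq) is of GRCm38, so it gave symbols, lengths, gene order and sequences, and no gene coordinates. All values were whole reads within 0.05 after division by the step of each library (100.0% of values above 0), with size factors of 0.828 to 1.284 and 31.04 to 39.3 M reads per library. Low counts were mostly even, so reads may not be independent fragments, and edgeR and DESeq2 may overstate the precision of low genes. Of the identifiers 52073 had a symbol, carrying 99.2% of the signal.

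The 17333 genes averaging 10 or more normalized counts were tested as log2(normalized count + 1) with limma 3.58.1 (R 4.3.3; robust, trended prior), all 24 libraries in 1 fit with 20 residual degrees of freedom, and 5 contrasts adjusted separately by Benjamini and Hochberg. Folds of low genes are understated on this scale. A call needed an adjusted p under 0.05. Alternatives were other pseudocounts, no filter, TMM, upper-quartile and equal-total scaling, edgeR 4.0.16 and DESeq2 1.42.0 on recovered reads, only the groups compared, each library left out, and the title number as a block. The script was tested on simulated data. All members are named in each comparison, and of each other list up to 2 called genes with the smallest p per contrast may be named. The members and lists were chosen with earlier results of these data known. Of 177 listed symbols 174 matched. A gene that this rule picks is not reported here.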

Additional observations from a re-analysis of the deposited data

Results flagged for a closer look

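In 32 sets of 6 libraries, 8 members in 4 groups, 1 library lay far from the others of its group. Slco2b1 in male active library 2 was the highest of its group at 977 normalized counts, with the next at 763, a gap of 0.671 of the group's range against a 95% critical value of 0.625 (Dixon). Chance flags about 1 in 20 such sets. The male period difference of Slco2b1 was called without that library too (log2 fold 0.64, adjusted p = 0.00284 in limma).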

How the results depend on the processing

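Of the 40 member folds, all kept direction and call under pseudocounts of 0.5 and 5, TMM factors and edgeR, and 39 under DESeq2. The exceptions that changed a call are given beside their genes in the report. Calls over all genes fell to 1756 of 2665 for males between the periods with only the 2 groups fitted, and for the interaction were 247 without the filter and 946 with DESeq2, against 470, with 276 to 780 when 1 library was left out. Members called between the periods in males numbered 1 to 2 with 1 library left out, and in the interaction 1 with DESeq2 and 0 to 1 with 1 library left out. In settings chosen after seeing the data, leaving out the 4 female libraries with Y-linked reads gave 1311 calls for females between the periods, against 2592, and 45 for the interaction, and leaving out female active 3 and 4 gave 301. The cause was not tested. Signs turned only for folds that were not called. With 1 library left out the range crossed 0 for Slco1a1 (-0.12 to 0.014) and Slco4a1 (-0.32 to 0.14) between the periods in males, for Slco2a1 in females (-0.042 to 0.023) and for the Slco1a6 interaction (-0.024 to 0.087). Under upper-quartile scaling they were Slco2a1 in females (0.013) and the Slco1a6 interaction (-0.025). Without the Y-linked read libraries Slco2a1 in females was at 0.096, and without female active 3 and 4 Slco2a1 was at 0.045, Slco1a6 at -0.011 and Slco4a1 at -0.13 in females, and the Slco4a1 interaction at 0.050. Whether the numbers in the titles pair males with females was not settled. Of 12 pairs 1 correlated over 0.1 (-0.104 to 0.124), and 5 correlated best with their own number among the 6 candidates. With that number as a replicate block, all 24 member folds it could be fitted for kept their call.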

Other observations

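Enzymes that make the sulphate and glucuronide conjugates carried by Slco proteins differed between the sexes in both directions. Of 13 tested, 5 were higher and 6 lower in active males, and 6 and 6 in inactive males, with median log2 folds of -0.18 and -0.24. Ugt2b34, a glucuronosyltransferase, averaged 951 ± 95.9 and 939 ± 93.8 normalized counts in active and inactive males and 3725 ± 338 and 4138 ± 347 in active and inactive females, with log2 folds of -1.97 ± 0.07 and -2.14 ± 0.07. Ugt1a2 averaged 8.62 and 7.11 in active and inactive males and 12464 and 14103 in active and inactive females, but the Ugt1a genes share exons, so its share of their reads is uncertain. Sult1d1, a sulphotransferase, rose in active females, with 48554 ± 6162 normalized counts in the active and 27579 ± 5462 in the inactive period and a log2 fold of 0.83 ± 0.11 (adjusted p = 8.58e-06). Its period effect was smaller in males than in females by 0.69 ± 0.15 on the log2 scale (adjusted p = 0.0179).

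Regulators of transporter genes were split as well. Of 20 tested, 9 were higher and 7 lower in males in each period. The estrogen receptor Esr1 was higher in males, with a log2 fold of 1.35 ± 0.11 in the active period, and so was the tubular factor Hnf4a, with 0.72 ± 0.05. The prolactin receptor Prlr was lower in inactive males, at 331 ± 238 normalized counts against 11251 ± 2170 in inactive females, with a log2 fold of -5.27 ± 0.37. Ppara, a receptor for fatty acids, fell in the active period, with log2 folds of -0.57 ± 0.11 in males and -0.54 ± 0.11 in females. Of 12 genes listed as sex-biased in the proximal tubule 8 were higher and 4 lower in males in each period. Of 5 clock genes listed all were called between the periods in both sexes, against 15.4% of all tested genes in males and 15.0% in females.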
